A study of Mus musculus with 104 samples.

Results

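The genes described here encode the proteasome, and their transcripts were compared between single mouse neurons titled experiment and single neurons titled control. Members were the rows of the count table whose symbols begin with Psm, a letter from a to g and a number, without the pseudogene rows marked -ps. This gave 50 of the 45808 gene rows: 8 Psma, 11 Psmb, 7 Psmc, 14 Psmd and 5 Psme genes, and 5 genes of the Psmf and Psmg families. The 4 pseudogene rows left out held 2 counts in all experiment libraries and 3 in all control libraries.

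Each library is the RNA drawn into a patch pipette from 1 neuron in a slice of the substantia nigra of mice, a part of the midbrain that loses its dopaminergic neurons in Parkinson disease. The study made fluorescent reporters of Lewy pathology, the aggregates of alpha-synuclein seen in that disease, and its design text describes picking substantia nigra pars compacta neurons that carried α-Syn-6H-EGFP inclusions. The experiment group has 38 libraries and the control group 66. All are labelled as dopaminergic neurons of the substantia nigra, and the labels give no genotype, treatment, age or animal for either group and do not say which neurons were controls.

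The proteasome is the protease that degrades proteins tagged with ubiquitin. Its core particle is a barrel of outer alpha rings, which gate the entry, and inner beta rings, some subunits of which cut the substrate. A regulatory particle caps the barrel, with a ring of ATPases that unfold substrates and pull them in and a set of non-ATPase subunits that bind ubiquitin, remove it and hold the particle together. Activators of the Psme family can take the place of the cap, and dedicated chaperones build the rings. Neurons depend on the proteasome because they cannot dilute damaged proteins by dividing, and proteasome components are found in Lewy bodies.

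With no animal named, each group counts as 1 sample, so no test between groups was possible and no p-value is given. Levels are pooled CPM (the counts of a gene summed over the libraries of a group, divided by all gene counts of that group and given as CPM) with 95% exact Poisson intervals, and ratios are pooled CPM, experiment over control, with exact binomial intervals. Both kinds of interval cover counting error only. They are much narrower than the spread between neurons, which is given as the lowest, median and highest library. A gene counted as expressed at a pooled CPM of at least 10 over all libraries and reads in 25% or more of either group's libraries. A gene counted as apart when it was at least 1.5-fold higher or lower both by pooled CPM and by the mean CPM with every library weighted equally.

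By their titles the libraries fall into set 1 (21 experiment and 31 control), where control numbers end at 37, and set 2 (17 and 35), whose control titles are in another letter case and stand among experiment 36 and above. Within these, experiment records followed by control records form runs, of which 5, numbered 1, 2, 3, 4 and 6, have at least 4 libraries of each group. The labels name neither as a batch.

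Experiment libraries held 116567 to 3094036 gene counts and control libraries 153770 to 2577694. After thinning to 400000 counts, which 34 experiment and 60 control libraries were deep enough for, the median library held reads of 6911 genes in experiment and 8472 in control. Th, Slc6a3, Slc18a2 and Ddc, which define dopaminergic neurons, were detected in each of the 38 experiment and 66 control libraries. Of the other dopaminergic markers, Nr4a2 was detected in 37 experiment and 65 control libraries and Pitx3 in 30 and 56. The 6 dopaminergic markers were all lower by both weightings, with a median sum of 15799 CPM in experiment and 21072 CPM in control libraries. Among markers of other cells, 8 of 8 expressed astrocyte, 5 of 6 microglial, 4 of 6 oligodendrocyte and 4 of 4 GABAergic markers were higher in experiment by both weightings. Of 5 endothelial and blood markers 0 were expressed, and Cldn5 was at 0 throughout. Their sum had a median of 0 CPM in both groups and reached 169.5 CPM in experiment and 216.5 CPM in control libraries. The summed CPM of the 28 astrocyte, microglial and oligodendrocyte markers ran from 71.2 to 17131 (median 2011) in experiment libraries and from 357 to 10776 (median 1299) in control libraries. Without the libraries highest in those markers (25 experiment and 53 control kept) the median log2 ratio was 0.37 for the alpha genes, 0.015 for the beta genes, 0.14 for the ATPase genes, 0.031 for the non-ATPase genes, -0.40 for the activators and 0.75 for the assembly and inhibitor genes. With all libraries these medians were 0.39, -0.0029, 0.18, 0.011, -0.42 and 0.45. Single genes moved more: without those libraries the log2 ratio of Psmg2 was -0.70, against -1.22 with all, and that of Psmd7 0.12, against 0.35.

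Of the 50 genes, 43 were expressed, and each of these met both limits within each group. Together the 50 genes stood at 8355 CPM in experiment and 7671 CPM in control, a ratio of 1.09. Of the 43, 25 (58.1%) were higher and 13 (30.2%) lower in experiment by both weightings, where 40.9% of all 9113 expressed genes were higher and 45.8% lower. Only 4 of the 43 were at least 1.5-fold apart, 2 higher and 2 lower (9.30%), against 18.8% of all expressed genes (7.77% higher and 11% lower). By part, 7 of 7 alpha and 5 of 6 ATPase genes were higher and 4 of 4 activators lower. The other parts were split, with 3 beta genes higher and 3 lower, 7 non-ATPase genes higher and 5 lower, and 3 assembly and inhibitor genes higher and 1 lower.

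**Figure D1:**
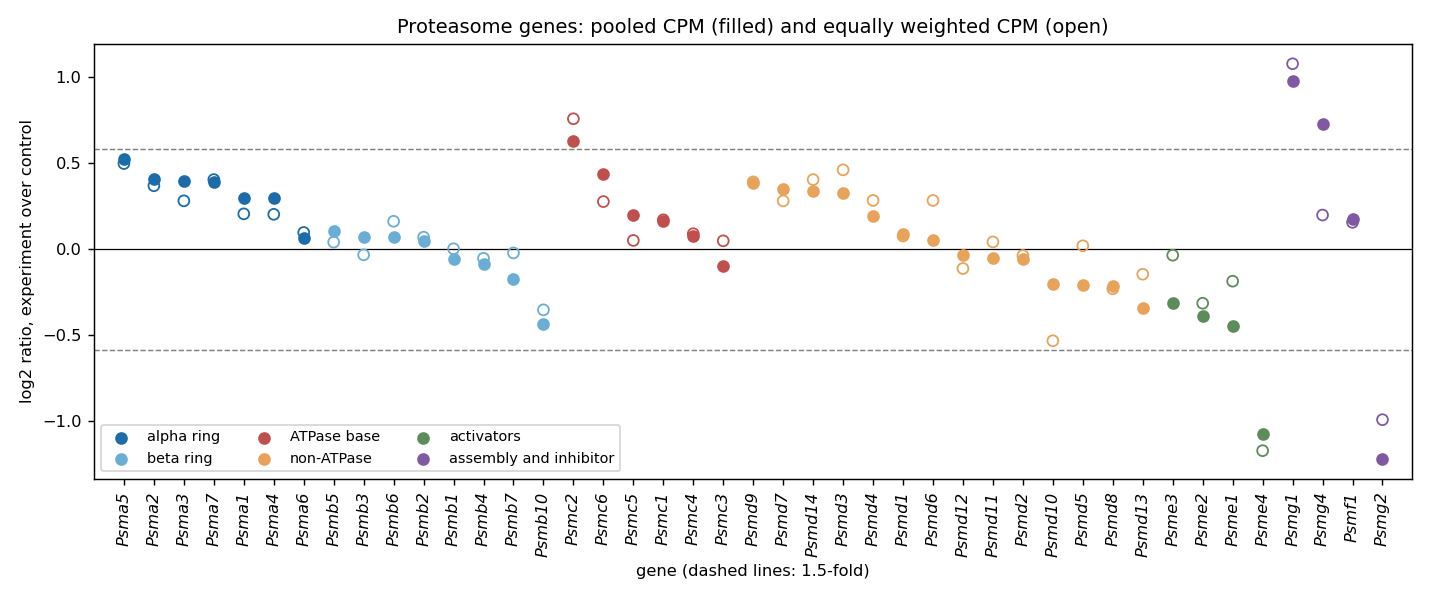
Log2 ratio of each of the 43 expressed proteasome genes, experiment over control, by pooled CPM (filled circles) and by mean CPM with libraries weighted equally (open circles), coloured by part of the particle. The 7 alpha genes all lie above 0 and the 4 activator genes all below it, and Psmc2, Psmg1, Psme4 and Psmg2 lie beyond the dashed 1.5-fold lines by both measures.

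The 4 genes that were at least 1.5-fold apart are Psmc2, an ATPase of the regulatory particle, Psmg1 and Psmg2, which form the chaperone pair that starts the alpha ring, and Psme4, a nuclear activator. The promoters of 3 of them are shown, to let the sequences of genes that differed in direction be compared; that of Psmg2 was not analysed here. Each run holds 250 bases before and 50 from the annotated start in RefSeq (GRCm38.p6), 5′ to 3′ on the gene's strand. Capitals mark 2 motifs searched on both strands, CCGGAAG, a site of the ETS family of factors common in housekeeping promoters, and TGACNNNGC, the core of the antioxidant response element to which the proteasome gene activator Nfe2l1 binds.
Psmc2, chr5:21785025-21785324, plus strand: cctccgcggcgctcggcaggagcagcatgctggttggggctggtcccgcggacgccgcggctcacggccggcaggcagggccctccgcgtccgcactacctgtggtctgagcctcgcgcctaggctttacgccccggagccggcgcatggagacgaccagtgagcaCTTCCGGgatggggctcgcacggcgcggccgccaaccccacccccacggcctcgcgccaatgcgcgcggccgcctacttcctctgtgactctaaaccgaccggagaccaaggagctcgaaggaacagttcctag
Psmg1, chr16:95990911-95991210, minus strand: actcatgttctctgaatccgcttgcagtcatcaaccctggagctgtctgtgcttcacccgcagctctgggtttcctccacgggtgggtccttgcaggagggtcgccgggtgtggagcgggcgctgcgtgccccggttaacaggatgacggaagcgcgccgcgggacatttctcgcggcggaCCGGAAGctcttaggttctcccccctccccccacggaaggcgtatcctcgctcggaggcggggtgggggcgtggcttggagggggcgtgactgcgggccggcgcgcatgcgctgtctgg
Psme4, chr11:30771525-30771824, plus strand: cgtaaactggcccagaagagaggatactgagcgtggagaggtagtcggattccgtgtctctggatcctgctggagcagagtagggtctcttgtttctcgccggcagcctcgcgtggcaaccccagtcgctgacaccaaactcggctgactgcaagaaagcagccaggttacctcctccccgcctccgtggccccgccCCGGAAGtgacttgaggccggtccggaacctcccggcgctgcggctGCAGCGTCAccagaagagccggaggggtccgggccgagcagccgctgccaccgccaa

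All 3 windows held 1 match to CCGGAAG or its reverse complement, so the motif stood in both members at least 1.5-fold higher and in Psme4, which was lower. Promoters were found for 42 of the 50 genes, and 15 of these genes (35.7%) had the motif, against 8.86% of all 32851 promoters in the table and 17.8% of the promoters of expressed genes. TGACNNNGC was present in Psme4 and in 5 other members, Psmb5, Psmb6, Psmc6, Psmd9 and Psmd12, or 14.3% of the 42, against 12.4% of all promoters and 14.3% of those of expressed genes. The core of the interferon-stimulated element, GAAA, any 2 bases and GAAA again, was in Psmb3, Psmd4, Psmd9, Psme1 and Psmg4, 11.9% of the 42, against 3.44% of all promoters and 2.82% of those of expressed genes. CCAAT was in 35.7% of the 42, against 37.4% and 37.2%. The motifs were searched on both strands. Member shares count genes with a match in any of their promoters, while the other shares count promoters. Of the 45 member promoters, 16 held CCGGAAG, 6 TGACNNNGC, 5 the interferon-stimulated core and 15 CCAAT. A match is a run of letters and not a measured binding site.

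The alpha ring was higher in experiment libraries. All 7 expressed alpha genes were higher by both weightings and in both title sets, none reached 1.5-fold, and their median log2 ratio was 0.39, against -0.035 for all expressed genes. With libraries weighted equally the median was 0.28, against -0.023. The summed CPM of the alpha genes ran from 708 to 3685 (median 1669) in experiment libraries and from 590.2 to 2346 (median 1350.1) in control libraries. Of the 38 experiment libraries 31 exceeded the control median, although the 2 ranges overlapped over most of their width.

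Psma7, which had the highest alpha level per kilobase of transcript, ran from 129.5 to 1198 CPM (median 412) in experiment libraries and from 81.1 to 856 (median 332) in control libraries. Its pooled level was 467 CPM (460.4 to 474) against 356 (351 to 360.0), a ratio of 1.31 (1.29 to 1.34). Of 38 experiment libraries 26 lay above the control median. Psma5 had the highest ratio of the ring, with 15.5 to 909 CPM (median 159.8) in experiment libraries and 0 to 501 (median 121) in control libraries. Its ratio was 1.44 (1.40 to 1.48), and 25 experiment libraries lay above the control median. On the log2 scale it was -0.65 in record run 1 and 1.82 in run 2. Psma2, Psma3, Psma1 and Psma4 had ratios of 1.33, 1.32, 1.23 and 1.23, and 1.29, 1.22, 1.15 and 1.15 with equal weights. In that order, 20, 23, 19 and 20 of the 38 experiment libraries lay above the control median. The median of Psma1 was lower in experiment, at 198 CPM against 203 CPM in control libraries.

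Psma6 stood closest to level, with a ratio of 1.05 (1.02 to 1.08) and medians of 157 CPM in experiment and 145 CPM in control libraries. Psma3 and Psma7 were the 2 of the 43 expressed members that were higher in each of the 5 record runs. This share lies close to the 4.07% of all expressed genes that were. The eighth alpha gene, Psma8, is known as a form of the testis. It had 0 counts in experiment libraries, for which a floor of 3 counts over the group allows up to 0.0747 CPM, and 92 counts in control libraries, all of them from 1 neuron.

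The beta ring did not follow the alpha ring. Of its 8 expressed genes 3 were higher and 3 lower by both weightings, the median log2 ratio was -0.0029, and the summed CPM had a median of 1496 in experiment libraries and 1464 in control libraries. The catalytic subunits stood near level by pooled ratio. Psmb5, the chymotrypsin-like site and the target of proteasome inhibitor drugs, ran from 0 to 330.0 CPM (median 90.1) in experiment libraries and from 0 to 356 (median 102) in control libraries. Its ratio was 1.08 (1.04 to 1.12), that of the caspase-like Psmb6 1.05 (1.03 to 1.07) and that of the trypsin-like Psmb7 0.886 (0.856 to 0.917). The record runs differed, with log2 ratios from -0.31 to 0.45 for Psmb5, -0.39 to 0.63 for Psmb6 and -1.08 to 0.44 for Psmb7. The structural subunits Psmb1, Psmb2, Psmb3 and Psmb4 had ratios of 0.963, 1.03, 1.05 and 0.945.

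Within a neuron, the ratio of summed alpha to summed beta CPM does not depend on how libraries are scaled. This measure was chosen after the values of the rings were seen. It ran from 0.438 to 2.49 (median 1.10) in experiment libraries and from 0.473 to 2.05 (median 0.913) in control libraries, and 31 of 38 experiment libraries lay above the control median. In title set 1 the medians were 1.04 in experiment and 0.998 in control libraries, with 15 of 21 experiment libraries above the control median, and in title set 2 they were 1.13 and 0.907, with 15 of 17. In record run 6 the order was the other way, with medians of 0.983 and 1.02.

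**Figure D2:**
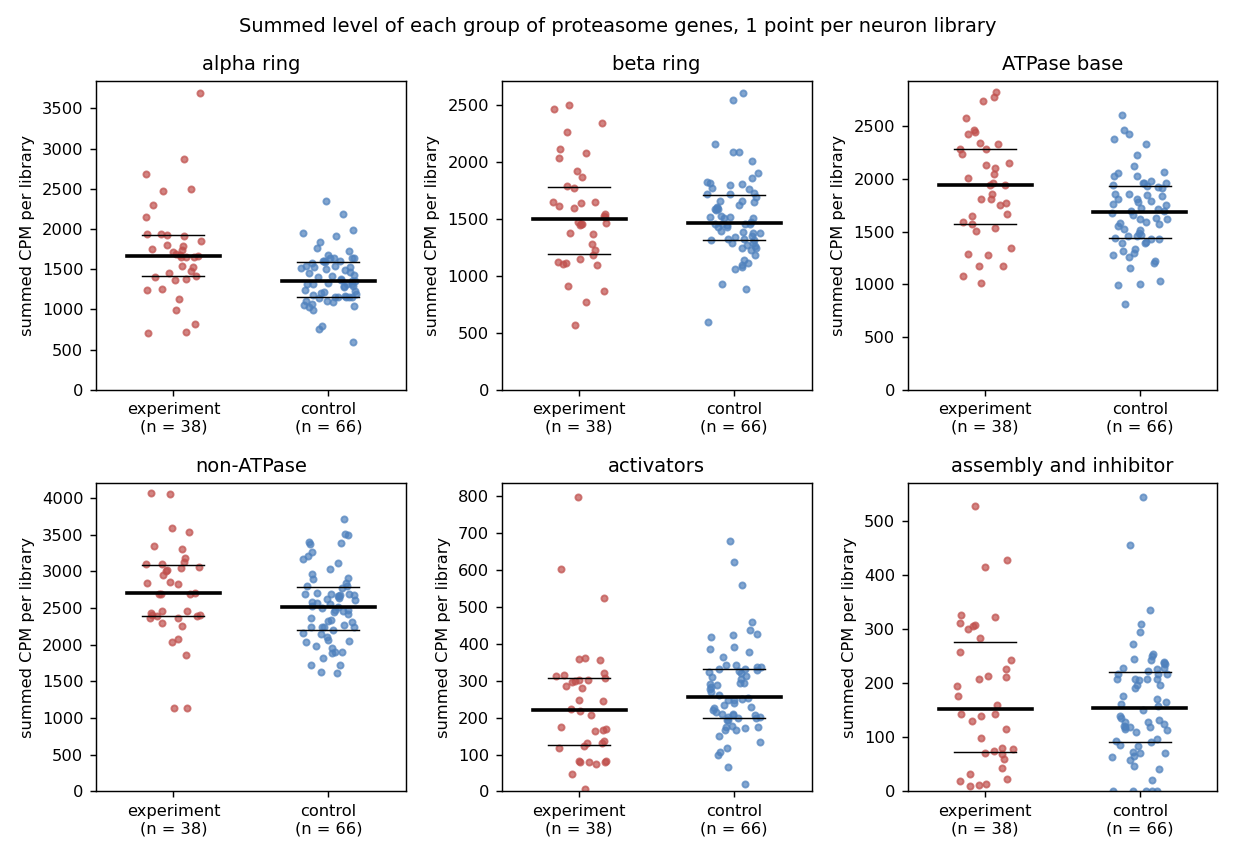
Summed CPM of the genes of each part of the proteasome, with 1 point per neuron library, thick lines at the medians and thin lines at the quartiles (38 experiment and 66 control libraries). The alpha medians are 1669 in experiment and 1350.1 in control libraries, the beta medians 1496 and 1464, and the points of both groups overlap in every panel.

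The immune beta subunits replace the constitutive catalytic ones in cells exposed to interferon. Psmb8 had 55 counts in experiment libraries, from 3 neurons, and 162 in control libraries, from 10 neurons. Psmb9 had 7 counts from 1 experiment neuron and 58 from 5 control neurons. Both stood below the expression filter, at 1.37 CPM in experiment and 2.18 in control for Psmb8 and at 0.174 and 0.780 for Psmb9, and no neuron with at least 400000 counts had both after thinning. Psmb11, known from the thymus, had 0 counts in either group.

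Psmb10, the counterpart of Psmb7, was in contrast found in most neurons. It ran from 0 to 305 CPM (median 30.9) in experiment libraries and from 0 to 283 (median 68.4) in control libraries. The pooled level was 59.7 CPM (57.3 to 62.1) against 80.5 (78.5 to 82.6), a ratio of 0.741 (0.707 to 0.777), and 24 of 38 experiment libraries lay below the control median. Its log2 ratio was -1.45, -0.53 and -1.02 in record runs 1, 2 and 4 but 0.46 and 0.23 in runs 3 and 6. It was -0.027 in libraries with more genes detected and -0.084 in those low in ERCC share, against -0.43 with all libraries. Thinned to equal depth, 27 of 34 experiment and 59 of 60 control neurons kept reads of it. A lower share in experiment was seen for 77.7% of all expressed genes.

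The ATPase ring was slightly higher. Of the 6 expressed ATPase genes 5 were higher by both weightings and 0 lower, the median log2 ratio was 0.18, and the summed CPM had a median of 1940.3 in experiment libraries and 1685 in control libraries. Psmc2 (GRCm38, chromosome 5, 21785283 to 21803787, plus strand) stood apart from the others. It ran from 0 to 859 CPM (median 214) in experiment libraries and from 0 to 524 (median 149.6) in control libraries, and 29 of 38 experiment libraries lay above the control median. The pooled level was 257 CPM (252 to 262) against 166 (164 to 169), a ratio of 1.55 (1.51 to 1.59), and 1.69 with equal weights. Its ratio was 1.64 in the first title set and 1.45 in the second.

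The difference in Psmc2 was not seen in every subset. Its log2 ratio was 0.70 to 0.92 in 4 record runs and -0.21 in the run of experiment 36 to 40 and control 38 to 41. Among the 10 experiment and 37 control libraries with the most genes detected it was -0.044. Psmc6 followed with a ratio of 1.35 (1.32 to 1.39), which was 1.04 in the first title set and 1.73 in the second, and Psmc5 and Psmc1 had 1.15 and 1.12. Psmc4 and Psmc3 were level, with 1.05 (1.03 to 1.08) and 0.934 (0.912 to 0.957). Psmc3ip shares the name pattern but encodes a factor of meiotic recombination, and had 69 counts from 5 experiment neurons and 172 from 9 control neurons.

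The 14 non-ATPase genes were divided: 7 were higher and 5 lower by both weightings, and the median log2 ratio was 0.011. Their summed CPM had a median of 2702 in experiment libraries and 2519 in control libraries. In the lid, which removes the ubiquitin chain, 4 of 8 genes were higher and 3 lower. Psmd14, the deubiquitinase of the lid, ran from 0 to 652 CPM (median 193) in experiment libraries and from 0 to 375 (median 162) in control libraries, with a ratio of 1.27 (1.23 to 1.30). Psmd7, its partner subunit, had 1.28 (1.25 to 1.31), while the lid subunits Psmd13 and Psmd8 had 0.790 (0.755 to 0.827) and 0.862 (0.837 to 0.888). With equal weights Psmd13 and Psmd8 had 0.905 and 0.853. The log2 ratio of Psmd13 ran from -1.30 in record run 3 to 0.44 in run 6, and that of Psmd7 from -0.81 in run 1 to 0.55 in run 4.

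The scaffold and receptor subunits stood near level. Psmd1 and Psmd2, the large scaffolds of the base, had ratios of 1.06 and 0.963, and Psmd4, a ubiquitin receptor, 1.14. Psmd5, Psmd9 and Psmd10 are chaperones that build the ATPase ring and do not stay in the finished particle. Psmd9 ran from 0 to 226 CPM (median 42.8) in experiment libraries and from 0 to 149.6 (median 29.9) in control libraries, with a ratio of 1.31 (1.23 to 1.39). Psmd10 had a ratio of 0.868 and Psmd5 0.866, but with equal weights Psmd10 had 0.692 and Psmd5 1.01. Psmd5 was at 0.663 in the first title set and 1.10 in the second.

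All 4 expressed activator genes were lower by both weightings, and their median log2 ratio was -0.42 pooled and -0.25 with equal weights. The summed CPM of the family ran from 7.34 to 797 (median 219.7) in experiment libraries and from 19.4 to 679 (median 257) in control libraries, with wide overlap. Relative to the summed alpha CPM of the same neuron, the activators had a median of 0.142 in experiment and 0.200 in control libraries, and 28 of the 38 experiment libraries were not above the control median. This second ratio was also chosen after the values were seen.

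Psme4 (chromosome 11, 30771726 to 30880361, plus strand), a large nuclear activator with a known role in the handling of acetylated histones, was the lowest of them. It ran from 0 to 59.6 CPM (median 1.46) in experiment libraries and from 0 to 82.7 (median 17.8) in control libraries, and 31 of 38 experiment libraries lay below the control median. The pooled level was 10.9 CPM (9.86 to 11.9) against 22.8 (21.8 to 23.9), a ratio of 0.475 (0.427 to 0.529), and 0.444 with equal weights. Thinned to equal depth, 20 of 34 experiment and 50 of 60 control neurons kept reads of it. Its ratio was 0.873 in the first title set and 0.322 in the second.

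Psme1 and Psme2 encode the 2 subunits of the interferon-responsive activator. Psme1 ran from 0 to 229 CPM (median 63.7) in experiment libraries and from 0 to 352 (median 90.4) in control libraries, with a ratio of 0.733 (0.702 to 0.766). Psme1 and Psmg2 were the 2 of the 43 expressed members below 1 in every record run, against 5.85% of all expressed genes. The ratio of Psme1 with equal weights was 0.880. Psme2 had medians of 25.6 CPM in experiment and 37.7 CPM in control libraries and a ratio of 0.765 (0.720 to 0.814). Its log2 ratio was -0.94, -0.34 and -1.22 in record runs 1, 2 and 4 but 0.18 and 0.43 in runs 3 and 6. Psme3, the nuclear activator known for ubiquitin-independent degradation, had a ratio of 0.806 pooled and 0.977 with equal weights. Psme2b, an intronless copy of Psme2, stood at 1.59 CPM in experiment and 3.11 CPM in control libraries, so its level and part of that of Psme2 are uncertain where reads fit both.

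A smaller share of experiment libraries held reads of each activator. Thinned to equal depth, Psme1 was detected in 29 of 34 experiment and 57 of 60 control neurons, Psme2 in 25 and 56, and Psme3 in 25 and 57. A lower share in experiment was seen for 77.7% of all expressed genes, and for 20 of the 43 expressed members, many of which were found in nearly every library. The part that the smaller number of genes detected plays in the lower activator levels was not tested.

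The genes of assembly and inhibition gave the widest differences. Psmg1 (chromosome 16, 95979933 to 95990960, minus strand) ran from 0 to 167 CPM (median 21.9) in experiment libraries and from 0 to 100.3 (median 8.74) in control libraries. The pooled level was 34.5 CPM (32.7 to 36.4) against 17.5 (16.5 to 18.4), a ratio of 1.97 (1.83 to 2.13), and 22 of 38 experiment libraries lay above the control median. The direction differed between the sets, with 14.8 against 18.6 CPM in title set 1, a ratio of 0.794, and 56.9 against 16.9 CPM in title set 2, a ratio of 3.37.

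Psmg2, its partner, lay the other way. It ran from 0 to 105 CPM (median 0) in experiment libraries and from 0 to 137 (median 24.9) in control libraries. The pooled level was 15.4 CPM (14.2 to 16.6) against 35.7 (34.4 to 37.1), a ratio of 0.430 (0.393 to 0.469), and 29 of 38 experiment libraries lay below the control median. It was lower in both sets, at 5.38 against 33.9 CPM in title set 1 and 26.7 against 36.7 CPM in title set 2. Like Psme1 and 5.85% of all expressed genes, it was below 1 in every record run.

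Seen neuron by neuron after thinning, 12 of 34 experiment libraries had a count of both Psmg1 and Psmg2, 10 of Psmg1 alone, 1 of Psmg2 alone and 11 of neither. Of 60 control libraries, 33 had both, 5 Psmg1 alone, 9 Psmg2 alone and 13 neither. Psmg3 and Psmg4 form a second chaperone pair of the alpha ring. Psmg4 had a pooled ratio of 1.66 (1.505 to 1.83) but 1.15 with equal weights, and 24.2% of its experiment counts came from 1 library, and Psmg3, below the expression filter, stood at 10.2 CPM in experiment and 9.71 CPM in control. Psmf1, an inhibitor of the core in vitro, had a ratio of 1.13 (1.09 to 1.18).

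**Figure D3:**
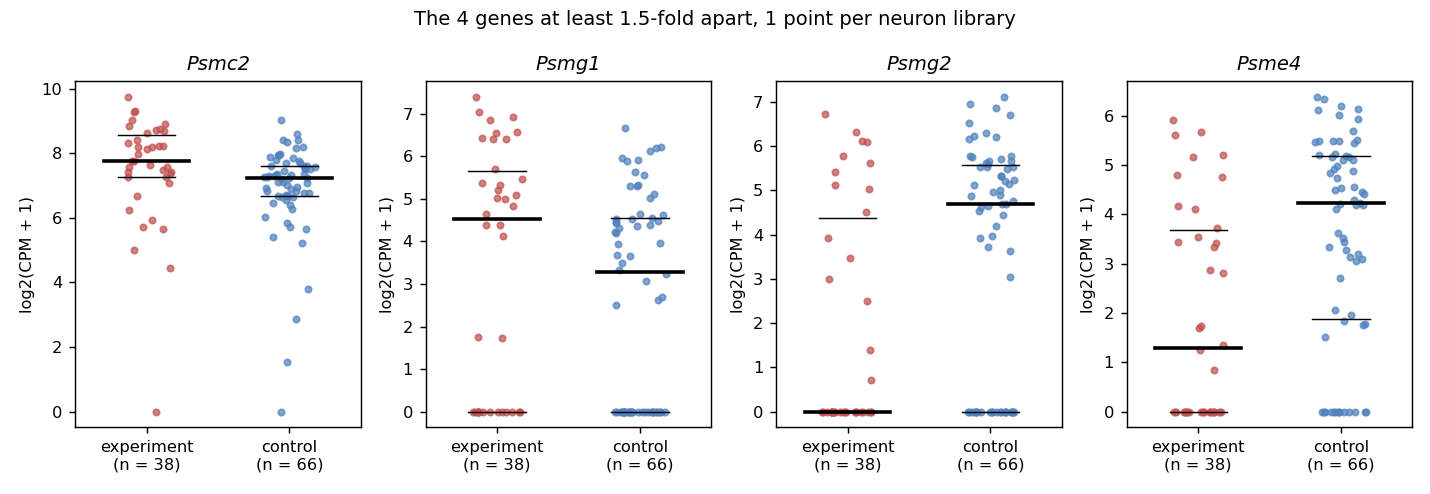
Level of Psmc2, Psmg1, Psmg2 and Psme4 in each neuron library as log2(CPM + 1), with thick lines at the medians and thin lines at the quartiles (38 experiment and 66 control libraries). Median CPM are 214 and 149.6 for Psmc2, 21.9 and 8.74 for Psmg1, 0 and 24.9 for Psmg2 and 1.46 and 17.8 for Psme4, experiment and control in that order, and many libraries of the last 3 genes lie at 0.

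Across sets and runs the parts differed in how steady they were. Of the 43 expressed members, 24 were above 1 in both sets and 11 below 1 in both, against 23.7% and 31.6% of all expressed genes. In at least 4 of the 5 runs 14 members were higher and 7 lower, against 18.2% and 25.8% of all expressed genes. In all 5 runs 2 were higher and 2 lower, shares of the 43 close to the 4.07% and 5.85% of all expressed genes.

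By parts, the alpha median was above 0 in each of these runs, from 0.056 to 0.52, and the ATPase median from 0.12 to 0.39. The activator median was below 0 in each, from -1.23 to -0.036. The beta median ran from -0.24 to 0.26, the non-ATPase median from -0.099 to 0.24, and the median of the assembly and inhibitor genes from -0.42 to 1.36. Set against all expressed genes, the picture was less even. In run 1 the alpha median of 0.056 lay below the 0.094 of all expressed genes, and in run 6 the activator median of -0.036 lay above their -0.12. In the other 4 runs each, the alpha median lay above and the activator median below that of all expressed genes, which was -0.16, -0.051 and -0.12 in runs 2, 3 and 4.

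**Figure D4:**
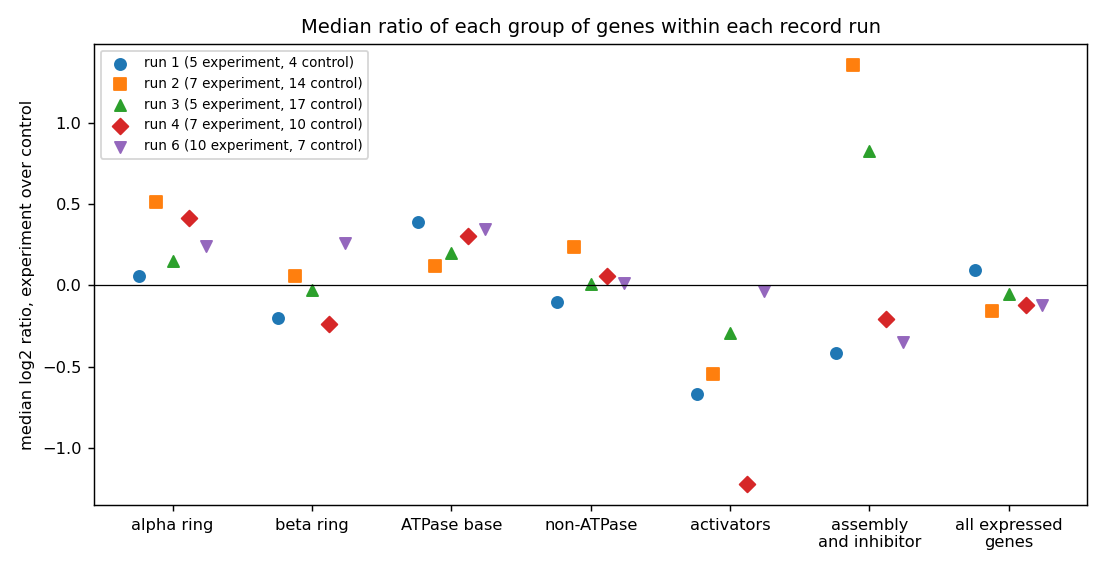
Median log2 ratio of pooled CPM, experiment over control, of the expressed genes of each part within each record run that has at least 4 libraries of each group, beside that of all expressed genes. The alpha and ATPase points all lie above 0 and the activator points below it, while the assembly and inhibitor points spread from -0.42 to 1.36.

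Short transcripts as a whole were higher in experiment libraries. The 708 expressed genes with a transcript under 1000 bases had a median log2 ratio of 0.16, the 2044 from 1000 to 2000 bases 0.01, the 3679 from 2000 to 4000 bases -0.06 and the 2356 of 4000 or more -0.13. The alpha genes had transcripts of 914.5 to 2911 bases, the activator genes Psme1 and Psme2 of 711 and 878.5 bases, and Psme4 of 6491 bases. The part of transcript length in the ratios of the members was not tested.

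Per kilobase of transcript, the most abundant members in experiment and control were Psma7 (451 and 343 pooled CPM per kb), Psmb6 (413 and 394) and Psmc5 (380 and 331). Within the alpha ring, whose subunits occur in equal numbers in the particle, the level per kb ranged from 80.1 for Psma2 to 451 for Psma7 in experiment and from 60.3 to 343 in control. The immune subunit Psmb10 stood at 45.5 per kb in experiment and 61.4 in control, beside 105 and 118 for its counterpart Psmb7. The activator Psme4 stood at 1.67 and 3.52 per kb, the lowest of the expressed members.

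**Figure D5:**
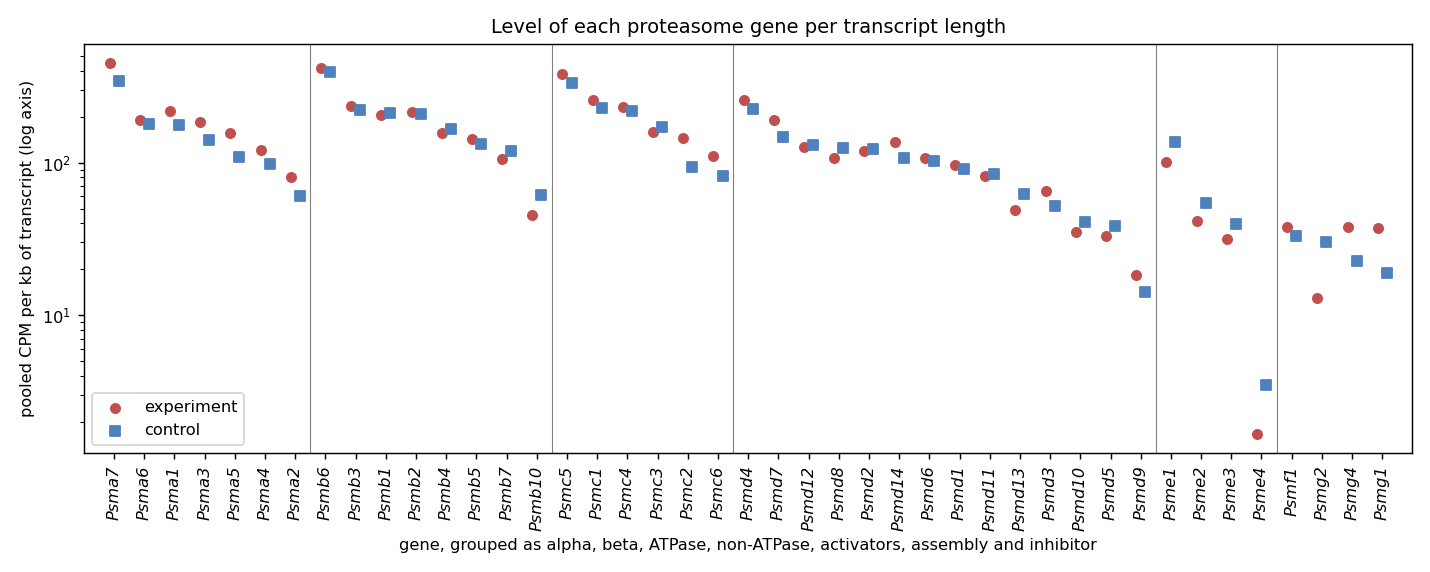
Pooled CPM per kilobase of transcript of each expressed proteasome gene in experiment (circles) and control (squares) on a log axis, grouped by part and ordered by the control level. Psma7, Psmb6 and Psmc5 lead their groups in both, and Psme4 is lowest, at 1.67 in experiment and 3.52 in control.

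Genes that work with the proteasome but lie outside the name pattern were divided in direction. Of 24 listed genes for assembly, ubiquitin receptors, deubiquitinases and regulators, 22 were expressed, 11 of them higher and 8 lower by both weightings, 0 at least 1.5-fold apart, with a median log2 ratio of 0.048. Pomp, the chaperone that completes the core particle, had medians of 176 CPM in experiment and 209.9 CPM in control libraries and a ratio of 0.955. Nfe2l1, the factor that raises proteasome genes when proteasome activity is short, had a ratio of 1.05. Akirin2, which brings proteasomes into the nucleus, stood at 20.6 against 35.3 CPM, a ratio of 0.582 pooled and 0.678 with equal weights, and Nploc4, a cofactor of the unfoldase Vcp, at 29.7 against 48.5 CPM, a ratio of 0.613. The receptor Adrm1 and the proteasome-bound thioredoxin Txnl1 each had 1.31, and the shuttle receptor Rad23b 1.28.

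Of 18 genes for ubiquitin and its attachment 17 were expressed, 6 higher and 10 lower by both weightings and 0 at least 1.5-fold apart, with a median log2 ratio of -0.13. The polyubiquitin gene Ubb ran from 1581 to 4800.5 CPM (median 2962) in experiment libraries and from 1455 to 7920.1 (median 3494) in control libraries, with a ratio of 0.859. Usp5, which recycles free ubiquitin chains, had a ratio of 0.649 and Ube3a, a ubiquitin ligase, 0.706. Rps27a had the highest pooled ratio of the list, 1.55, and 1.30 with equal weights. The conjugating enzyme gene Ube2k had 1.44 and the chaperone-linked ligase gene Stub1 1.26.

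In the list of class I antigen processing genes, which use the peptides that the proteasome makes, 8 of 13 were expressed, 1 higher and 5 lower by both weightings, and the median log2 ratio was -0.42, or -0.24 and -0.12 in title sets 1 and 2. Canx, Calr and Pdia3, endoplasmic reticulum chaperones that also serve other proteins, had ratios of 0.757, 0.714 and 0.735, and the peptide loading factor Tapbp 0.650, which was 0.318 and 1.11 in title sets 1 and 2. The peptide pump genes Tap1 and Tap2 stood below the filter, each detected in 2 experiment neurons and in 9 and 11 control neurons. Erap1, a peptide-trimming enzyme, was the member at least 1.5-fold higher, with a ratio of 1.79, but only 8 of 38 experiment and 19 of 66 control neurons held reads of it, its median was 0 CPM in both, and no order is read from it.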

How the data were processed

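Per the labels' protocols, full-length cDNA of single neurons (Smart-seq2) was turned into libraries by the HyperPlus kit. What the authors deposited is a matrix of unnormalized read counts by gene symbol, with 104 libraries as columns. The submitters' processing notes name STAR 2.5.3a, featureCounts 1.5.3 and mm10. Neither an annotation nor a strand setting is stated, so members that overlap a gene on the other strand (such as Psmb7, Psmb9, Psmc3, Psmd9 and Psmd13) may hold its reads. The 92 ERCC spike-in rows were kept out of totals.

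Groups came from the sample titles. Counts were summed per group and divided by summed gene counts, and group sums under 3 counts were raised to 3 for ratios. Each group was 1 sample, so no test was run, and intervals cover counting error only. Reads carry no molecular identifiers, so copies of 1 molecule count separately and the intervals may be too narrow even for counting error. Transcript length is the median over a gene's coding transcripts in GENCODE M21 (GRCm38), and genomic positions come from the same annotation. The calculation of ratios was checked on simulated Poisson counts from a common profile with planted differences. Those counts hold no spread between neurons, so the check covers the calculation and not how steady the ratios are in these data. Named are the members highest and lowest by ratio in each part, those at least 1.5-fold apart, the catalytic subunits and all activators, and from the other lists the members furthest from level by the smaller of the 2 ratios. Levels of further members were added after their values were seen. The members and lists were chosen with earlier results of these data known. Python 3.11.15, numpy 2.4.6 and scipy 1.17.1 were used.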

Additional observations from a re-analysis of the deposited data

How the results depend on the processing

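The alpha median of log2 ratios was above 0 and the activator median below 0 in all 18 alternatives, from 0.056 to 0.52 and from -1.23 to -0.036. The alpha median was 0.056 and 0.15 in record runs 1 and 3 and 0.18 in libraries with more genes detected. By mean log2(CPM + 1), where all expressed genes had a median of -0.38, the ATPase median was -0.034 and the activator median -1.13. The ATPase median was 0.39, 0.30 and 0.35 in runs 1, 4 and 6, the beta median -0.24 and 0.26 in runs 4 and 6, the non-ATPase median 0.24 in run 2, the activator median -1.23 in run 4, and the assembly and inhibitor median -0.42 and 1.36 in runs 1 and 2. The log2 of alpha over beta within libraries, experiment minus control medians, was 0.55 in run 2 and -0.047 in run 6.

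Psmc2 reversed in run 1 (log2 ratio -0.21) and in libraries with more genes detected (-0.044), Psme4 in run 6 (0.10), and Psmg1 in title set 1 (-0.33) and run 4 (-1.17). The cause was not tested. The 2 members at least 1.5-fold higher became 1 in title set 1, 5 in title set 2, 4, 8, 8 and 6 in runs 1 to 4, 5 in libraries low in ERCC share and 1 in those with more genes detected. The 2 lower members became 9 by mean log2(CPM + 1), 6 without a filter, 1 in title set 2, 7, 1, 5, 8 and 5 in runs 1, 2, 3, 4 and 6, 1 where libraries highest in glial markers were left out, and 1 in libraries low in ERCC share. The matching shares of all expressed genes in these alternatives are not given, so no result about the members is read from these counts. No paired analysis was possible because the result comes from no test and the title numbers name neurons. The runs hold 4 to 17 libraries a group, and sparse genes rest on few counts.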

Other observations

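How the parts varied together from neuron to neuron is given as a description, since libraries share depth and scaling and may share animals. Spearman's rho between summed alpha and summed beta CPM was 0.55 over the 38 experiment and 0.51 over the 66 control libraries. Between alpha and ATPase sums it was 0.44 and 0.16, between ATPase and non-ATPase sums 0.11 and 0.40, and between alpha and activator sums 0.074 and 0.080. The rho between the alpha sum and the number of genes with a count was -0.22 in experiment and -0.10 in control libraries.

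Irf1, an interferon-responsive factor that drives immune proteasome genes, was below the expression filter, with a count in 5 experiment and 13 control libraries. Its pooled level was 14.96 CPM in experiment, with 488 CPM in the highest library, and 4.65 CPM in control. No order is read from these levels, since the share of libraries with a count lies the other way.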
